A study of Mus musculus with 9 samples.

Results

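Il6, Lif, Csf1, Csf3, Saa3, Lcn2 and Ptx3 encode secreted proteins of inflammation, 4 of them cytokines (Il6, Lif, Csf1, Csf3) and 3 of them proteins of the acute-phase or innate response (Saa3, Lcn2, Ptx3). These 7 of the 19769 genes in the RNA-seq table were chosen by name and selected on their RNA levels, with the difference between high-MYC and low-MYC cells already known. That difference is therefore described for them and no p-value is given, although 5 of the 7 were part of the fit over all genes. The RNA came from primary mouse embryonic fibroblasts (MEFs) of Myc-Egfp+/+ embryos, whose MYC protein carries GFP. All cells received 20 µM of the proteasome inhibitor MG-132 for 6 h, were sorted for low or high GFP, and were kept in culture overnight. Low-MYC and high-MYC cells gave 2 technical replicate libraries each, so every spread below is that between libraries of one preparation. Primary MEFs also gave 1 FUBP1 ChIP-seq sample. TACh-seq, in which a nuclease cuts accessible chromatin, covered WT MEFs and KOKD MEFs, which are Fubp1 knockout cells given 100 nM of Fubp2 siRNA for 48 h, with 2 samples each. The WT cells of the siRNA experiments received 100 nM of non-target siRNA for 48 h. The TACh-seq table has no column that names a library, so WT and KOKD cells could not be compared. It is titled for WT, but the labels of all 4 TACh-seq samples name it. Whether its reads include those of KOKD cells is therefore unknown.

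Interleukin-6 and leukemia inhibitory factor belong to one cytokine family and signal through the shared receptor chain gp130 (Il6st) to JAK kinases and the transcription factor STAT3. Their transcription, like that of acute-phase genes, is known to respond to NF-κB and C/EBP factors that bind near the start of the gene. Many cytokine mRNAs carry the letters ATTTA repeatedly in the 3′ untranslated region, where binding proteins such as tristetraprolin (Zfp36) and KSRP (Khsrp, named FUBP2 in this study) shorten the life of the mRNA. Fibroblasts are a known source of all 4 cytokines, and CSF1 and G-CSF (Csf3) act on macrophages and neutrophils.

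The promoters of 3 of these genes are shown because they carried TACh-seq reads. That of Saa3 is shown because it had the largest ratio of mean RNA levels and no such reads. Each run covers 250 bases before and 50 bases from the start of the gene in RefSeq (GRCm38.p6), on the coding strand. Capitals mark matches to a κB motif, to the C/EBP motif TTGCNNAA and to the AP-1 motif TGANTCA, searched on both strands.
Il6 (chr5:30012864-30013163, plus strand): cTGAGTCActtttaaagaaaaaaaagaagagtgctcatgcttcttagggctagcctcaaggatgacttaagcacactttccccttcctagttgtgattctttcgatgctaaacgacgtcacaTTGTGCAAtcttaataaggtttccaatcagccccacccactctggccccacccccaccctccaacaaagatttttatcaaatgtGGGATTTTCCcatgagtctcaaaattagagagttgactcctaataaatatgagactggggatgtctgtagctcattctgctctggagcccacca
Csf1 (chr3:107760420-107760719, minus strand): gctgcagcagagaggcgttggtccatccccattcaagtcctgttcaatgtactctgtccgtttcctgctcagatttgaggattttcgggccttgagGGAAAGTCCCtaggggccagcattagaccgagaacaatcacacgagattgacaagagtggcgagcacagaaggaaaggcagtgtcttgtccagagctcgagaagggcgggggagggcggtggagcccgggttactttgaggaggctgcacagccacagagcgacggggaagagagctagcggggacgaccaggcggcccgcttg
Ptx3 (chr3:66219637-66219936, plus strand): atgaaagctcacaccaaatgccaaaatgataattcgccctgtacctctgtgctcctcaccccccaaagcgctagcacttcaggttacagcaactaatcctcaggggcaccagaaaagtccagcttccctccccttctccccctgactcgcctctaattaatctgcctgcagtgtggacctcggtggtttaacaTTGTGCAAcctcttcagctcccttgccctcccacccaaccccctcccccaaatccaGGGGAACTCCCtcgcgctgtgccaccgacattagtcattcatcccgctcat
Saa3 (chr7:46715627-46715926, minus strand): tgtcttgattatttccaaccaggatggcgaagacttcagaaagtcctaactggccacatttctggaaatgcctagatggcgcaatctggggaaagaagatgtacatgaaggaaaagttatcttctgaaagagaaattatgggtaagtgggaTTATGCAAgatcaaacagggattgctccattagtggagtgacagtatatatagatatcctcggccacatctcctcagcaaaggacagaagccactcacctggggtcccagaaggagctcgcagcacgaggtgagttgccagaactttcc

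RefSeq held a promoter for 6 of the 7 genes; Csf3 is named only. A κB motif was matched in Il6, Csf1 and Ptx3, against 4.51% of 32851 promoters of the same length. The match began 44 bases before the start of Il6 and 154 bases before that of Csf1. In Ptx3 a pair of overlapping matches lay at the start itself. The C/EBP letters were matched in Il6, Ptx3, Saa3 and Lcn2, against 10.8% of all promoters. Il6 and Ptx3 shared the same 8 letters, TTGTGCAA, 128 and 57 bases before their starts. AP-1 letters were matched in Il6 and Lif, against 7.81% of promoters. None of the 6 promoters held the STAT letters TTCNNNGAA (8.30% of all promoters), the MYC E-box CACGTG (7.15%) or TATAAA (13.6%). A match is a run of letters and not a measured site, and the RefSeq start of Lcn2 lies 513 bases from the start in the RNA-seq table.

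RNA was measured as fragments per kilobase of transcript (FPK), divided in each library by the level of external RNA added in proportion to cell number. The values, called normalized FPK here, thus stand for RNA per cell rather than a share of the library, and the read depth behind them is unknown. Over 11870 genes with a mean of at least 0.1, the median difference was 1.03 on the log2 scale (high-MYC minus low-MYC, after adding 0.1), a 2.04-fold higher level in high-MYC cells. The middle of the distribution was narrow, from 0.59 at the 5th percentile to 1.35 at the 95th. By limma, 6540 of these genes (55.1%) were called higher in high-MYC cells (adjusted p under 0.01 and at least 2-fold), and 0 were called lower, with 0 also at an unadjusted p under 0.05 and the same fold. Each difference is therefore also given after rescaling the 4 libraries to the same median gene, which left a median of -0.0039. After that step 65 genes (0.548%) were called higher and 6 (0.0505%) lower. Myc itself was at 9.81 and 9.86 normalized FPK in low-MYC and at 20.3 and 20.5 in high-MYC libraries, a log2 difference of 1.04, and of -0.13 after rescaling.

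Il6, the gene of interleukin-6 (chr5:30013114-30019981, plus strand, mm10), was listed at 0.407 and 0.379 normalized FPK in the low-MYC libraries and at 2.20 and 2.32 in the high-MYC libraries. The groups did not overlap, and the ratio of their means was 5.75. On the log2 scale the difference was 2.26 (SE 0.0565), and after rescaling the ratio was 2.54. Il6 moved from rank 7010 to rank 4174 among all listed genes by its level.

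Lif encodes leukemia inhibitory factor, which keeps mouse embryonic stem cells undifferentiated in culture (chr11:4257557-4272514, plus strand). Its level was 0.580 and 0.555 normalized FPK in low-MYC cells and 1.36 and 1.39 in high-MYC cells. The ratio of means was 2.42, close to that of the median gene, and after rescaling it was 1.07. Lif kept nearly the same rank, 5845 in the low-MYC group and 5622 in the high-MYC group. The order of the 2 related cytokines was thus different in the 2 groups, with an Il6 to Lif ratio of 0.701 and 0.684 in the low-MYC libraries and 1.62 and 1.67 in the high-MYC libraries.

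Csf1, the growth factor of macrophages (chr3:107741048-107760469, minus strand), was the most abundant of the 7 transcripts in every library. It stood at 44.0 and 44.8 normalized FPK in low-MYC cells and 85.2 and 90.2 in high-MYC cells, and the ratio of means was 1.97. This was slightly below the median gene, and the direction turned after rescaling, to 67.0 and 66.6 in low-MYC against 58.4 and 58.1 in high-MYC libraries (ratio 0.872). Csf1 ranked 163 of 19769 genes in low-MYC cells and 186 in high-MYC cells.

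Csf3, which encodes the granulocyte growth factor G-CSF (chr11:98701263-98703629, plus strand), had a mean level just below the minimum for testing. Its values were 0.0662 and 0.0756 normalized FPK in low-MYC cells and 0.128 and 0.126 in high-MYC cells. The groups did not overlap and the ratio of means was 1.79, but after rescaling the low-MYC libraries were higher, at 0.101 and 0.112 against 0.0876 and 0.0812. With a mean of 0.0989, Csf3 stayed just outside the fitted genes.

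Saa3 encodes a serum amyloid A that, unlike the liver forms, is made in many tissues (chr7:46711998-46715700, minus strand). It was listed at 0.0212 and 0.0189 normalized FPK in low-MYC cells and at 0.672 and 0.492 in high-MYC cells. The ratio of means was 29.1. Saa3 had the largest ratio of the 7 genes, and also after rescaling, where it was 12.9. On the log2 scale with 0.1 added, which compresses low levels, its difference was 2.49 (SE 0.131). Saa3 moved from below Csf3 in both low-MYC libraries to above it in both high-MYC libraries.

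Lcn2, the gene of the iron-siderophore binding protein lipocalin-2 (chr2:32384633-32388252, minus strand), was the lowest of the 7 in every library. Its values of 0.00601 and 0.00603 normalized FPK in low-MYC cells compare with 0.119 and 0.0641 in high-MYC cells. The ratio of means was 15.2, or 6.77 after rescaling. Both ratios rest on the lowest low-MYC values of the 7 genes, and the read depth behind those values is unknown. In proportion, the high-MYC libraries differed from each other more than for any other of the 7 genes. Lcn2 had a mean of 0.0487 and was left out of the fit. At such levels the added 0.1 decides the log2 difference, which was 0.84 with it and 3.65 with 0.001 in its place.

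Ptx3, the gene of the long pentraxin that marks microbes for uptake (chr3:66219910-66225805, plus strand), stood at 4.47 and 4.11 normalized FPK in low-MYC cells and at 25.2 and 25.4 in high-MYC cells. The ratio of means was 5.90, the log2 difference 2.53 (SE 0.0536) and the rescaled ratio 2.61. Ptx3 was the second most abundant of the 7 transcripts in all 4 libraries and rose in rank from 1242 to 523. Its level over that of Il6 was nearly the same in every library, between 10.8 and 11.5. Veph1 overlaps Ptx3 on the opposite strand.

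**Figure D1:**
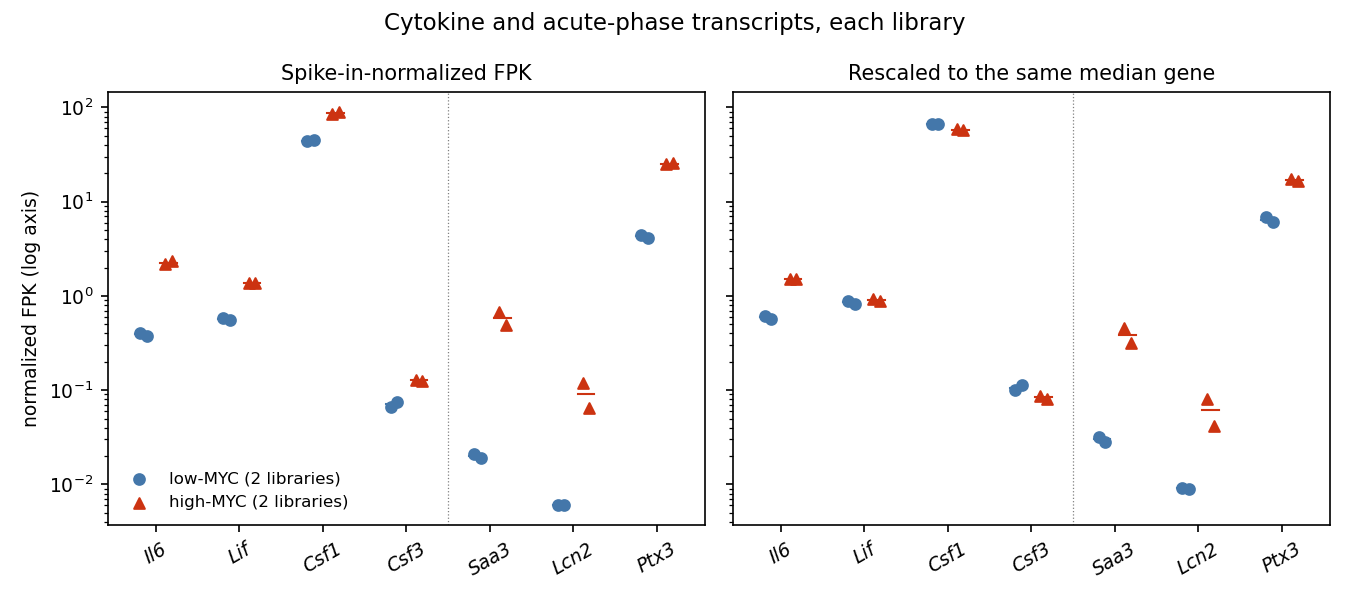
Normalized FPK (log axis) of the 7 genes in each low-MYC library (circles) and high-MYC library (triangles), as deposited on the left and rescaled to the same median gene on the right; bars are group means of 2 libraries. On the left all high-MYC points lie above the low-MYC points, whereas on the right Csf1 and Csf3 lie lower in high-MYC cells and Il6, Saa3, Lcn2 and Ptx3 stay higher.

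All 7 genes had both high-MYC libraries above both low-MYC libraries, as did 92.5% of all listed genes. After rescaling the same held for 5 of the 7 (31.7% of all genes), with Csf1 and Csf3 in the opposite order. Of the 5 genes above the minimum level, Il6, Lif, Saa3 and Ptx3 passed the call for higher levels (55.1% of tested genes). Il6, Saa3 and Ptx3 also passed it after rescaling (0.548%). These calls follow from how the genes were picked and carry no further weight. In bulk RNA, fewer cells that express a gene and less of its RNA per cell cannot be told apart.

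The genes nearest in pattern, by Euclidean distance over the 4 log2 values, were Msln (distance 0.336) and Dcn (0.362) for Il6. Dcn, the fibroblast proteoglycan decorin, was listed at 0.423 and 0.422 normalized FPK in low-MYC and at 1.86 and 1.94 in high-MYC cells. Lif was nearest to En1 (0.0339) and Uckl1 (0.0530), and Csf1 to the ribosomal protein genes Rpl36al (0.144) and Rpl36a (0.162). The nearest genes to Saa3 were Wfdc17 (0.414) and the macrophage and melanocyte glycoprotein gene Gpnmb (0.508). Ptx3 was nearest to Gm26809 (0.540) and to the chemokine gene Ppbp (0.575). Lif and Csf1 thus had close neighbours and Il6, Saa3 and Ptx3 more distant ones.

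Markers of macrophages moved with the same contrast. All 20 macrophage markers had both high-MYC libraries above both low-MYC libraries, as did 92.5% of all listed genes. Their summed level was 0.953 and 1.31 normalized FPK in low-MYC cells against 30.5 and 31.8 in high-MYC cells. All 11 that were tested were called higher (55.1% of all tested genes), with a median log2 difference of 2.71. After rescaling 10 were called higher (0.548% of all tested genes). Lyz2, the macrophage lysozyme, was at 0.0305 and 0.142 in low-MYC and at 18 and 18.9 in high-MYC cells. Adgre1, a surface receptor of macrophages, was at 0 and 0.000385 against 0.0278 and 0.0327. Ptprc (CD45) was low in every library, at 0.000308 and 0.000464 in low-MYC against 0.0157 and 0.016 in high-MYC cells. None of the 20 was at 0 in both low-MYC libraries. The 12 fibroblast markers summed to 338 and 344 in low-MYC and to 810 and 828 in high-MYC cells. Their sum was larger than that of the macrophage markers in every library. All 12 were tested and 11 were called higher (55.1% of all tested genes), with a median log2 difference of 1.44. After rescaling 1 of them, Lum, was called higher (0.548% of all tested genes). Of 10 neutrophil markers 3 were analysed, with sums of 0.0618 and 0.0981 against 0.568 and 0.571, and the 8 lymphocyte markers were not analysed here. Of the 6 endothelial markers only 1 was high enough to test, and it was not called. Of the 6 epithelial markers also only 1 was tested, and it was called higher (55.1% of all tested genes). The part of macrophage transcripts in the values of Saa3, Lcn2, Ptx3 and the cytokines was not tested.

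Other cytokines of the families above were mostly low. Of 21 in the list, 16 had values and 8 were high enough to test, and 4 of these were called higher (55.1% of all tested genes) and 0 lower, with a median log2 difference of 1.10 against 1.03 for all genes. Tslp, an epithelial and stromal cytokine, was at 0.336 and 0.331 normalized FPK in low-MYC and at 1.28 and 1.5 in high-MYC cells (log2 difference 1.78, SE 0.0836). Il1a and its natural antagonist Il1rn differed by 1.52 and 1.43. Clcf1, a ligand of the IL-6 family, was not called at 0.96. Il11, another member of the family, differed by 0.49 and was lower after rescaling, by 0.52, without passing the call. Rescaling left 0 of the 8 past the call at 2-fold, and Tslp and Il1a past an adjusted p of 0.01 at any fold (1.76% of all tested genes). Tnf was near 0 in all libraries, at most 0.026.

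Receptors for these ligands were called higher in 9 of the 13 tested (55.1% of all tested genes) and lower in 0, with a median log2 difference of 1.10. Il6st, the shared gp130 chain, was at 2.98 and 3.12 normalized FPK in low-MYC and at 8.99 and 9.45 in high-MYC cells, a log2 difference of 1.56 (SE 0.0493; limma, adjusted p = 1.04e-05). The oncostatin M receptor gene Osmr differed by 1.67 and the TNF receptor gene Tnfrsf1a by 1.37. The private chains were low, with Il6ra at 0.0445 and 0.0446 in low-MYC and at 0.125 and 0.121 in high-MYC cells, and Lifr at 0.0454 and 0.0459 against 0.112 and 0.130. Csf1r, the receptor of CSF1, differed by 1.61. After rescaling it was called also (difference 1.02, limma adjusted p = 0.0026), as were 0.548% of all tested genes. Il6st, Osmr and Tnfrsf1b then passed at any fold only (1.76% of all tested genes). Csf1r is at the same time 1 of the 20 macrophage markers. Csf3r, the receptor of G-CSF, was not analysed here. The multiligand receptor gene Lrp2, which takes up lipocalin-2, was not called (difference 0.12, SE 0.0909), and Slc22a17, a proposed lipocalin-2 receptor, was called at 1.08.

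Signalling components and targets of STAT3 were called higher in 17 of 19, all of which were tested (55.1% of all tested genes). Lower calls numbered 0, and the median log2 difference was 1.22. With a minimum mean of 1, 10 of the 11 list genes tested were called higher, beside 4779 of all 5608 tested genes. After rescaling 0 of the 19 passed the call at 2-fold (0.548% of all tested genes). At any fold 3 passed, Stat3, Socs3 and Bcl3 (1.76% of all tested genes). Socs3, the feedback inhibitor induced by STAT3, was at 1.74 normalized FPK in both low-MYC libraries and at 5.81 and 5.93 in the high-MYC libraries, a log2 difference of 1.70 (SE 0.0412), and 0.56 after rescaling. Stat3 itself differed by 1.5 and by 0.38 after rescaling. Il4ra had the largest difference of the list, at 1.81, followed by Socs3 and Stat5a (1.59). The abundant targets Timp1, an inhibitor of metalloproteases, and Mcl1, a survival factor, differed by 1.18 and 1.07, close to the median gene. Cish and Socs2, feedback inhibitors downstream of STAT5, were not called.

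Transcription factors that act on cytokine and acute-phase promoters were called higher in 6 of 12 tested (55.1% of all tested genes), with 0 lower and a median log2 difference of 1.04. The 3 largest differences were those of Cebpd (2.05, SE 0.0427), Nfkbiz (1.83) and Cebpa (1.51). Cebpd encodes C/EBPδ, an acute-phase activator, and was at 0.828 and 0.841 normalized FPK in low-MYC and at 3.78 in both high-MYC libraries. Nfkbiz encodes IκBζ, a nuclear partner of NF-κB needed for Il6 and Lcn2 induction, and was at 0.543 and 0.531 against 2.15 and 2.17. Cebpb, long known as the nuclear factor of Il6, differed by 1.44. After rescaling 0 of the 12 passed the call at 2-fold (0.548% of all tested genes). Cebpd, Nfkbiz and Cebpa passed at any fold (1.76% of all tested genes), with differences of 0.95, 0.76 and 0.44. The NF-κB subunits lay near the median gene: Rela was called at 1.15, whereas Nfkb1 (0.98), Nfkb2 (0.97), Relb (0.96) and Rel (0.80) were not. The AP-1 subunits Jun and Fosl1 differed by 0.92 and 0.76, and turned after rescaling, to -0.25 and -0.39. Fosl1 then passed an adjusted p of 0.01 at any fold (limma, adjusted p = 0.0074), as did 0.531% of all tested genes in the lower direction.

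Of 20 other acute-phase genes, 8 had values and 2 were high enough to test, Serpina3n and Cp. Both were called higher (55.1% of all tested genes). Serpina3n, a serine protease inhibitor, was at 0.228 and 0.241 normalized FPK in low-MYC and at 1.71 and 1.60 in high-MYC cells. Its log2 difference was 2.39 (SE 0.0579). After rescaling it was called also (difference 1.41, limma adjusted p = 0.0039), as were 0.548% of all tested genes. Cp, the copper carrier ceruloplasmin, differed by 1.49, and by 0.67 after rescaling without reaching 2-fold. The liver forms Saa1 and Saa2 and the pentraxins Crp and Apcs were not analysed here. Haptoglobin (Hp) was at most 0.0265 in any library.

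**Figure D2:**
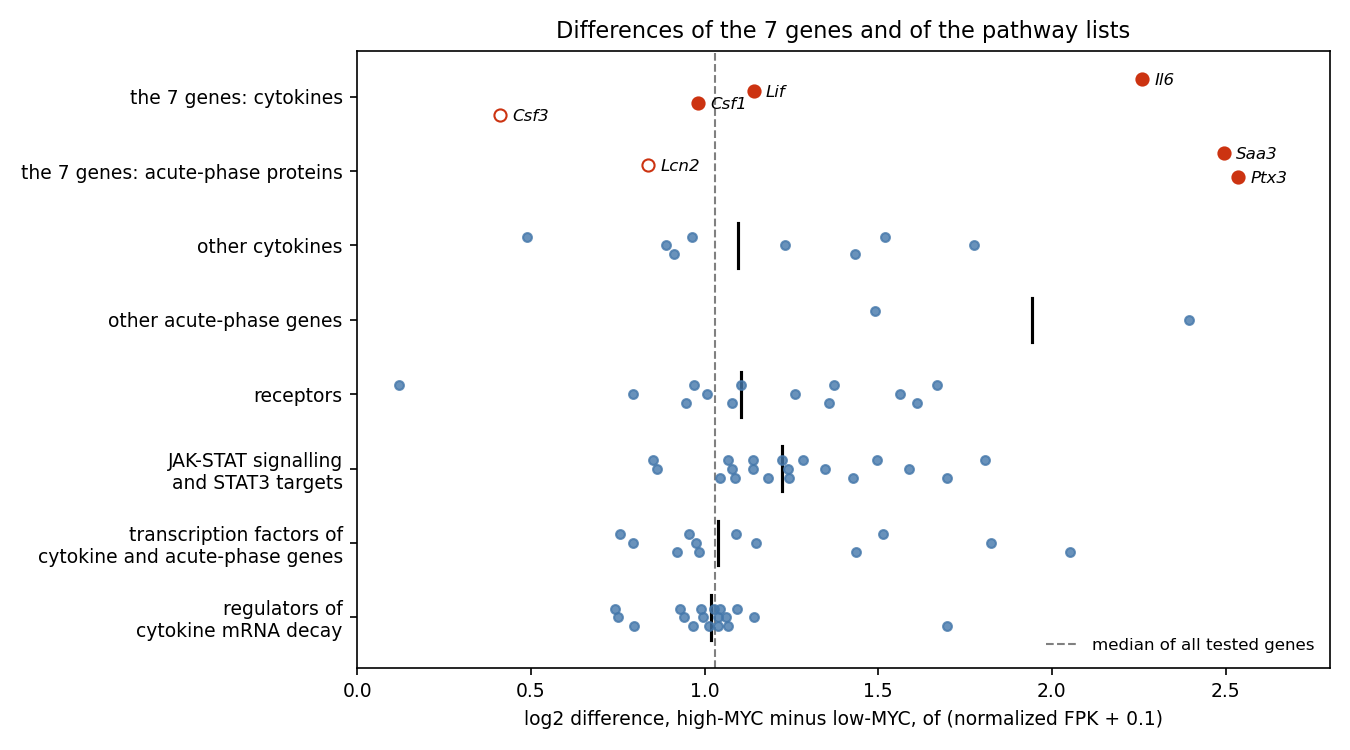
Differences between high-MYC and low-MYC cells, as log2 of (normalized FPK + 0.1), for each of the 7 genes (red, open where the mean level was too low to test) and for the tested genes of each pathway list (blue; black bar, list median). The dashed line is the median of all tested genes at 1.03: Il6, Saa3 and Ptx3 lie to its right by 1.23 or more, Lif and Csf1 lie close to it, and regulators of mRNA decay cluster around it.

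Per kb of 3′ untranslated region, Il6 and Csf3 held the most copies of ATTTA among the 7 genes, while Lif held the most in all. In the annotated transcript with the longest coding sequence (GENCODE M21), Il6 held 6 copies in 427 bases and Csf3 6 copies in 669 bases, or 14.1 and 8.97 per kb. The median of 14902 genes was 1.22 per kb, and 99.6% and 98.6% of them held fewer per kb than Il6 and Csf3. Lif held 7 copies in 3180 bases and Csf1 4 in 2111 bases, 2.20 and 1.89 per kb. Ptx3 held 2 copies in 600 bases, and Saa3 and Lcn2 held none. The 30-base stretches with the most copies (capitals) are shown for the 3 cytokines with the most copies, on the coding strand.
Il6 (chr5:30019684-30019713): atttttaATTTAttgataATTTAaataagt
Lif (chr11:4272414-4272443): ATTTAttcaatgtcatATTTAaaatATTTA
Csf3 (chr11:98702988-98703017): gtttATTTAtctctATTTAatATTTAtgca

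Regulators of cytokine mRNA decay were called higher in 10 of 18 (55.1% of all tested genes), with 0 lower, and their median log2 difference of 1.02 equalled that of all genes to within 0.01. Without the second high-MYC library the count was 5, and without the first it was 15. After rescaling 0 of the 18 passed at any fold (of all tested genes, 1.76% higher and 0.531% lower), and the median was -0.0813. Khsrp was at 4.49 and 4.53 normalized FPK in low-MYC and at 9.82 and 10.3 in high-MYC cells, a log2 difference of 1.14, and of -0.02 after rescaling. Zfp36 and Zfp36l2 differed by 1.09 and 1.04. Zc3h12a, the endonuclease regnase-1 that cuts Il6 mRNA, stood apart with 0.406 and 0.386 against 1.53 and 1.5, a log2 difference of 1.70 (SE 0.0505) and of 0.67 after rescaling (limma, adjusted p = 0.0103).

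TACh-seq reads were found at the starts of 3 of the 7 genes. Within 1 kb of the start, Csf1 had 160 reads (exact Poisson 95% interval 136 to 187, counting error only), Il6 130 (109 to 154) and Ptx3 83 (66.1 to 103). Lif, Csf3, Saa3 and Lcn2 had 0. Of all 19769 genes, 60.3% had at least 1 read there, and the median was 91 reads. The table holds 4881417 reads that lie only inside 36055 separate regions, so a 0 means that no listed region reached the window and sets no upper limit on accessibility.

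Around Il6 a single region of 2705 bp with 174 reads ran from -745 to 1959 bp of the start, and so covered the κB and C/EBP letters in the promoter printed above. The Csf1 start lay inside a region of 24989 bp with 1187 reads that covered the whole gene, followed upstream by 3 smaller regions. The Ptx3 region of 3163 bp held 128 reads, and a region with 115 reads lay at -4583 to -3244 bp, inside Veph1. Per kb of gene body, Csf1 had 42 reads, Il6 20.2, Lif 19.5 and Ptx3 19.3.

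Lif had 291 reads in the gene but none near its first start, since the closest region began 2778 bp downstream. GENCODE lists 2 further starts of Lif, 9239 and 9538 bp downstream, with 70 and 69 reads within 1 kb. Csf3, Saa3 and Lcn2 had no read anywhere in the gene. The nearest region to Csf3 lay over Med24, 6336 bp away. Near Saa3 the closest region, with 6 reads, overlapped no coding gene, the main one, with 92 reads, covered the start of Saal1, and the regions on either side of Lcn2 covered the starts of Ptges2 and 1110008P14Rik.

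**Figure D3:**
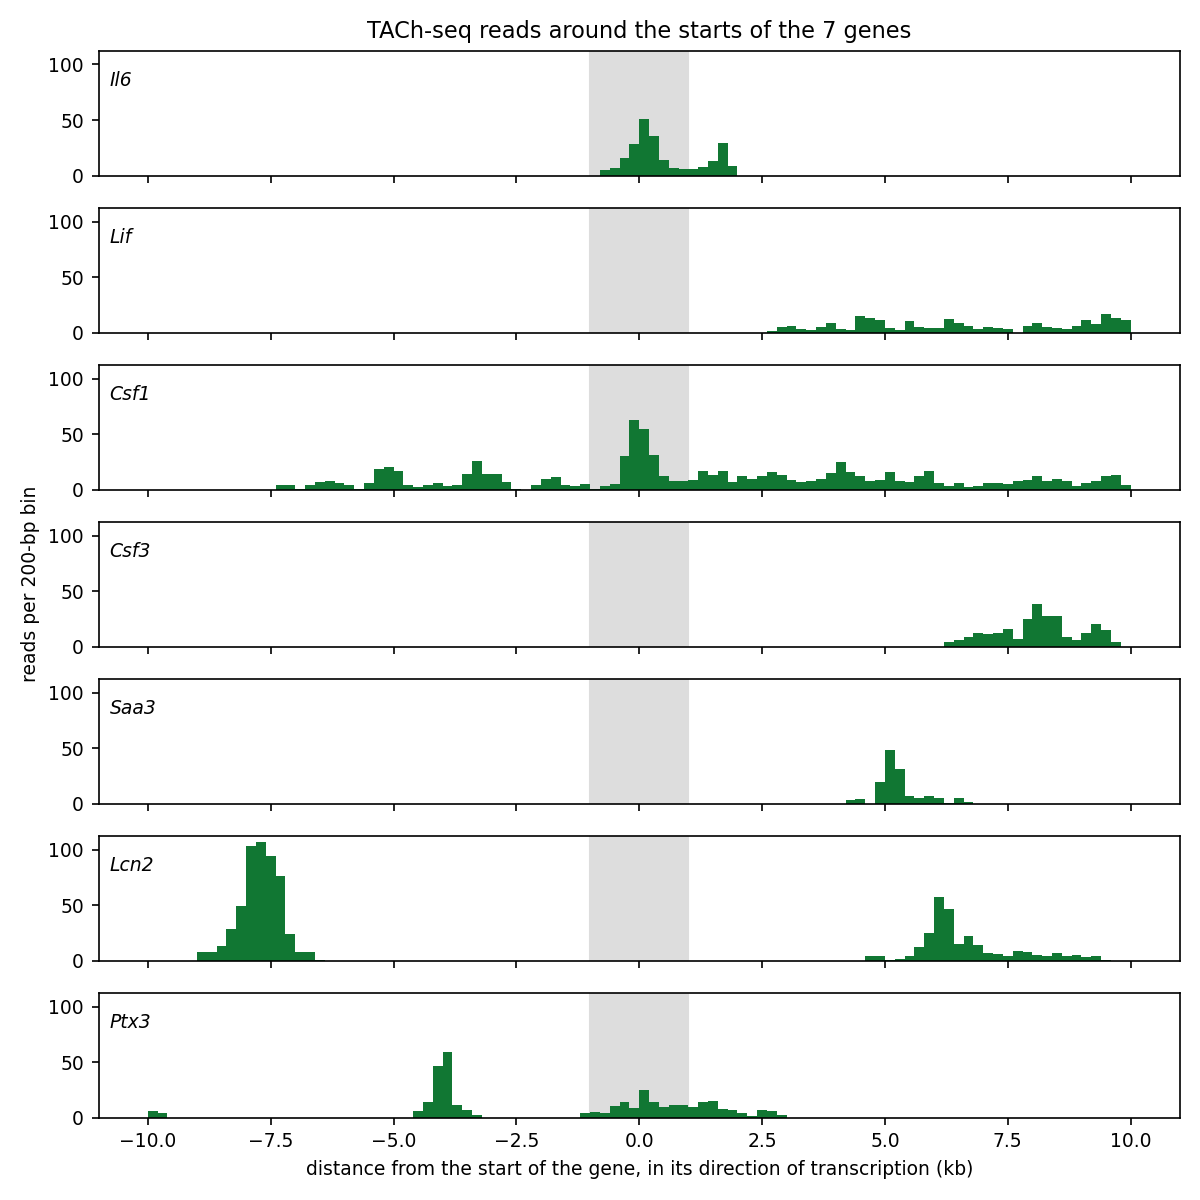
TACh-seq reads per 200-bp bin from 10 kb before to 10 kb after the start of each gene, in its direction of transcription; the grey band is the window of 1 kb on each side. Il6, Csf1 and Ptx3 have reads in the band (130, 160 and 83), whereas Lif, Csf3, Saa3 and Lcn2 have 0 and only show regions farther away.

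Csf1, Ptx3 and Il6 had the highest mean levels of the 7 transcripts, and among all genes the share with reads at the start was lowest at low RNA levels. It was 35.6% for genes with a mean under 0.1, 70.0% from 0.1 to 1, 85.2% from 1 to 10 and 78.9% at 10 or more. Il6, Csf1 and Ptx3, with means of 1.33, 66.0 and 14.8 normalized FPK, were in the upper classes and had reads. Lif (0.969), Saa3 (0.301), Csf3 (0.0989) and Lcn2 (0.0487) were in the lower classes. Neither sorting nor MG-132 is named for the MEFs of TACh-seq, so these reads were not measured in low-MYC or high-MYC cells.

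Among the lists, reads at the start were present for 7 of 16 other cytokines and 0 of 8 other acute-phase genes, among them Serpina3n and Cp. They were present for 12 of 17 receptors, with 263 reads at Il6st, 174 at Osmr and 0 at Csf1r and Lifr. All 19 signalling genes and STAT3 targets, all 13 transcription factors and all 18 regulators of mRNA decay had reads, as did 2 of 20 macrophage markers and 10 of 12 fibroblast markers. These shares stand beside 60.3% of all genes, and 6 of the 8 other acute-phase genes had a mean under 0.1, a class in which 35.6% of genes had reads.

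**Figure D4:**
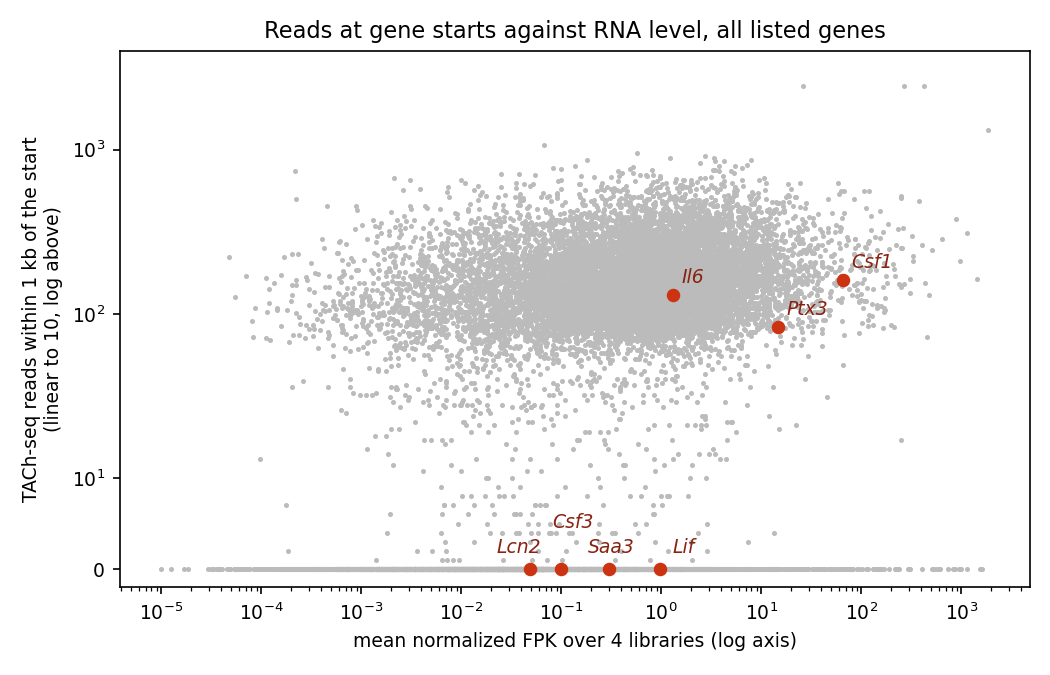
TACh-seq reads within 1 kb of the gene start (vertical axis, linear to 10 and log above) against mean normalized FPK over 4 RNA-seq libraries (log axis), for all genes with a mean above 0 (grey) and the 7 genes (red). Il6, Ptx3 and Csf1 lie within the cloud of genes with reads, and Lcn2, Csf3, Saa3 and Lif lie on the line of genes with 0 reads.

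FUBP1 ChIP-seq peaks were listed for chromosome 15 only, on which none of the 7 genes lies. Of 762 genes of the RNA-seq table on that chromosome, 74 (9.71%) overlapped at least 1 of the 166 peaks. Receptors of these cytokines on the chromosome are Osmr, Lifr and Csf2rb. Osmr overlapped 1 peak at its 3′ end (chr15:6811401-6815000), and Lifr and Csf2rb overlapped 0.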

How the data were processed

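RNA-seq values are the signal deposited by the authors: reads were trimmed below a base quality of 20, aligned to the mm10 transcriptome with TopHat, assigned by the Partek expectation-maximization algorithm, divided by transcript length and by the geometric mean of 10 spike-in transcripts. This shares reads among near-identical genes. For TACh-seq and ChIP-seq, Bowtie2 (mm10) and SICER served for alignment and peaks. The deposited TACh-seq table lists reads in called regions with a mapping score (11 to 42), and the ChIP-seq list gives positions only. Gene ends were corrected by 1 base.

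From these, log2(normalized FPK + 0.1) was fitted with limma 3.58.1 (R 4.3.3; eBayes with trend; Benjamini-Hochberg) over genes whose mean reached 0.1. On simulated data, 141 of 142 genes changed at least 2-fold were called. The changes put in lay clear of the 2-fold cut and no shift of all genes was added. The simulation therefore does not test calls near the cut, where the median gene lies. P-values compare technical libraries only. Depth is unknown for RNA-seq. The 7 genes and all lists were chosen with earlier results of these data known. Named list genes are the 3 largest differences and 2 highest means in each list; others were chosen after their values were seen. One gene that this rule names is not reported here. Neighbouring genes are the 2 nearest non-members.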

Additional observations from a re-analysis of the deposited data

How the results depend on the processing

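The 3 genes with TACh-seq reads at the start stayed 3 with a narrower and a wider window, with a mapping score of at least 30 and with distinct positions, and became 4 with Lif at another annotated start. The spread between technical libraries is the only error available, and the read depth is unknown. Csf3 and Lcn2 were below the minimum mean of the fit.

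Of 11870 tested genes 6540 were called higher. The count was 10076 with a pseudocount of 0.01, 1448 with 1, 65 after rescaling to the same median, and 11530 at any fold. It was 4779 at a minimum mean of 1 (5608 tested) and 12806 with a pseudocount of 0.001 (minimum mean 0.005, 17477 tested). Leaving out 1 library gave 5683 to 7374 genes. Genes called lower numbered 0, 6 after rescaling, 4 with the pseudocount of 0.001 and its lower minimum mean, 3 at any fold, and 0 to 1 without 1 library. Of the 72 tested genes of the 6 pathway lists, 48 were called higher. Here the count was 16 with a pseudocount of 1, 27 at a minimum mean of 1 (35 tested), 2 after rescaling, 76 where the pseudocount was 0.001 and the minimum mean 0.005 together (88 tested), and 41 to 56 without 1 library.

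The median log2 difference of the 7 genes was 1.14. It was 2.49 with a pseudocount of 0.01, 0.63 with 1, 2.26 at a minimum mean of 1 (3 genes), 0.55 after rescaling, 2.52 with that of 0.001, and 1.11 to 1.17 without 1 library. Rescaling turned Csf1 to -0.20 and Csf3 to -0.16.

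The replicates are technical and share only a number: the deviations of the first libraries of both groups from their group means correlated at 0.0810 over genes. With the replicate number as a block, 6556 genes and 48 list genes were called higher and 0 genes lower, so the counts moved by less than 1.5 times.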
